A study of Homo sapiens with 18 samples.

Results

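U-87MG cells in which the aryl hydrocarbon receptor (AHR) had been knocked down with the hairpin shAHR2 were compared with and without forced expression of the enzyme IL4I1. The comparison rested on 6 of the 18 arrays of the series, chosen by their labels alone: 3 arrays of cells with the IL4I1 vector and 3 of cells with the control vector. U-87MG is an established human glioblastoma line. All 6 cultures carried the AHR hairpin, so AHR was lowered in the controls too. The IL4I1 cDNA had been placed in the lentiviral vector pLX301, and the control cells had received that vector without the cDNA, followed by puromycin selection in both cases. The labels of the control arrays differ among themselves: their titles read C_shAHR2 and their condition entries shC_shAHR2, and they were taken here as control vector with shAHR2. The other 12 arrays held the same pair of vectors in cells with the other AHR hairpin (shAHR1) or a hairpin without a target (shCtrl). All cells had stood in culture for 120 hours before total RNA was taken. The labels describe the 3 arrays of a group as independent experiments on stable lines, and they do not say how many infections, pools or clones stand behind each line. The design pairs an IL4I1 line with an AHR hairpin and so asks which responses to IL4I1 are seen in cells with lowered AHR.

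IL4I1 is a secreted flavoenzyme that oxidises phenylalanine, tyrosine and tryptophan to their keto acids and releases hydrogen peroxide and ammonia. The product of tryptophan, indole-3-pyruvate, gives rise to ligands of AHR. AHR is a transcription factor that waits in the cytosol with HSP90 and, once a ligand is bound, enters the nucleus, pairs with ARNT and binds promoters and enhancers at a short core sequence. Its well known targets encode enzymes of xenobiotic metabolism, the AHR repressor AHRR and the feedback enzyme TIPARP. In glioma cells AHR is known for promoting motility and for dampening immune responses.

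Both engineered genes were checked first. The IL4I1 probe set read 6.36, 5.96 and 5.97 on the 3 control arrays and 12.89, 12.85 and 12.94 on the IL4I1 arrays, in log2 expression as for every level below. The groups lay far apart, and IL4I1 rose by 6.80 ± 0.22 (log2 change ± standard error, SE, from the limma fit, n = 3 arrays a group; adjusted p = 2.06e-11), which is 111-fold on the array scale. AHR read 7.78, 7.90 and 8.05 without and 7.74, 7.45 and 7.64 with IL4I1. Its change with IL4I1 was -0.30 ± 0.16 (adjusted p = 0.504). Between the control-vector cells with shAHR2 and those with shCtrl the difference in AHR was -2.23 ± 0.16 (adjusted p = 4.42e-06). AHR was thus lower than in shCtrl cells in both groups compared here, and still above the median of all probe sets, 6.51.

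The arrays gave 15529 named genes, and array medians lay between 6.46 and 6.53 over all 18. Between the 6 arrays, pairwise correlations over genes were 0.904 to 0.952. Of 17 glial and neural markers, 11 reached the median of all probe sets in at least 1 group; VIM and CD44 averaged 12.39 and 11.21 in the control cells, whereas the astrocyte filament gene GFAP averaged 6.57 and the oligodendrocyte lineage factor OLIG2 5.11, against a median of 6.51 for all probe sets. Of the other markers, 3 of 11 leukocyte and 4 of 9 epithelial and kidney markers also reached that median in at least 1 group. So did 5 of 11 fibroblast, muscle and endothelial markers, among them COL1A1 at 9.10 in the control cells. None of the markers of these other lists changed past the test. The lowest adjusted p among the leukocyte markers was 0.0727, for ITGAX. Control replicate 1 stood apart from the other control arrays in the cell-cycle genes, as described with those genes. The count of called genes is given with and without it. So are the counts for the endoplasmic reticulum, NRF2, AHR core target, interleukin, mitosis and DNA replication lists. Other lists were not counted without it, and the counts given for them hold for the main fit only. Because RMA makes the arrays' distributions alike and the samples are bulk RNA, fewer cells of a kind and less RNA per cell cannot be told apart.

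With IL4I1, 95 genes changed in shAHR2 cells at a Benjamini-Hochberg adjusted p under 0.05, which is 0.612% of the genes tested. Of these, 52 rose (0.335%) and 43 fell (0.277%), and these shares are the background for all list counts below. In all 95 the 3 IL4I1 arrays did not overlap the 3 control arrays, but this was also true of 18.8% of all genes, 8.91% higher and 9.88% lower. The median change over all genes was 0.01 with a median SE of 0.22, and 69 of the 95 changed by at least 1 on the log2 scale. The genes that rose most after IL4I1 itself include SLAMF9, IL24, MPV17L, KLHL38 and KRT86. Those that fell most include a histone, the chemokine CCL2, ELMO1, the kinase PLK4 and the guidance receptor DCC. Without control replicate 1, 335 genes were called, and leaving out any 1 of the other 5 arrays gave 22 to 35. In all 6 of these fits 16 genes kept the call: ERO1B, IL36B, IL4I1, KLHL38, KRT86, MPV17L, SLAMF9, SLC2A9 and TBC1D2 rose, and CCL2, CHRDL1, DCC, E2F7, ELMO1, LINC00922 and NR2F1 fell. Every other called gene, also where this is not repeated below, lost the call in at least 1 of these fits.

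**Figure D1:**
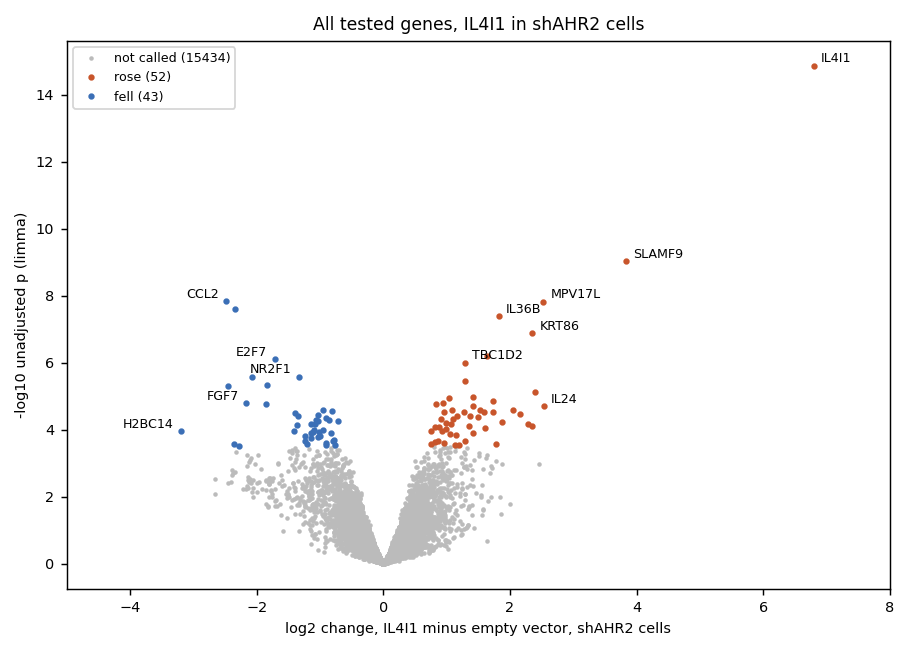
Each point is 1 of the 15529 genes, with the log2 change (IL4I1 minus control vector, shAHR2 cells) on the x axis and −log10 of the unadjusted limma p on the y axis; orange marks the 52 genes that rose, blue the 43 that fell and grey the others. IL4I1 lies far to the right at 6.80, followed by SLAMF9 at 3.83, and the points that fell reach -3.20 (H2BC14).

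SLAMF9, a member of the SLAM family of immune cell surface receptors, averaged 6.04 in control cells and read 9.63, 9.79 and 10.21 with IL4I1. It rose by 3.83 ± 0.30 (adjusted p = 7.23e-06), and its lowest IL4I1 array lay far above its highest control array. MPV17L, a relative of the inner mitochondrial membrane protein MPV17, went from 4.57, 4.72 and 4.43 to 7.06, 7.08 and 7.15 and rose by 2.52 ± 0.24 (adjusted p = 5.84e-05). Its control arrays lay near the low end of the scale, where the size of a change is uncertain. KRT86, a hair keratin with close paralogs that probes can share, read 7.14, 7.15 and 7.35 and then 9.53, 9.56 and 9.60, with little spread in either group, and rose by 2.35 ± 0.26 (adjusted p = 0.000293). None of the 8 other keratin and epithelial barrier genes that were listed and measured passed the test; the median over the 8 was 0.47 in these cells and 1.15 in shCtrl cells.

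**Figure D2:**
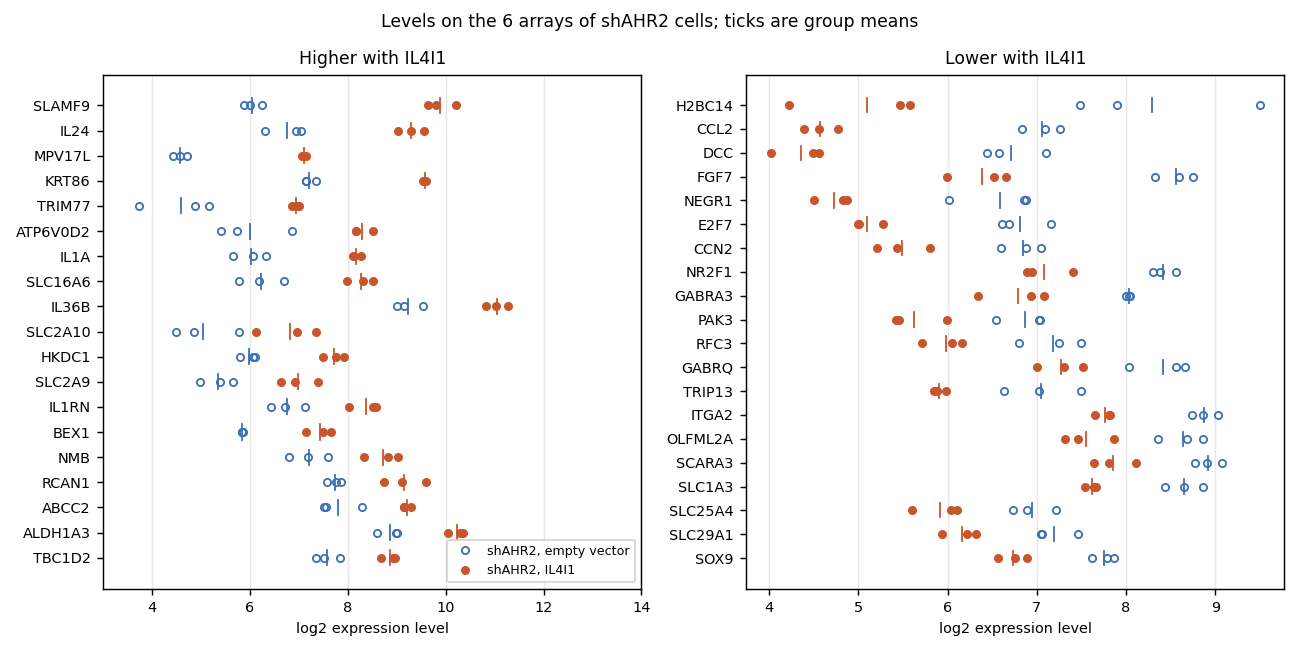
Each row is a gene and the x axis its log2 expression level; open circles are the 3 control arrays, filled circles the 3 IL4I1 arrays and ticks the group means, for the genes with the largest rises (left) and falls (right) among the brighter called genes, IL4I1 left out. Genes were drawn only if their groups did not overlap, so the 2 colours are separate in every row by that choice. The spread within a group is widest for H2BC14 among the genes that fell.

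Of the 9 measured AHR core targets, 2 rose, against 0.335% of all genes, and none fell. The count that rose was 3 without control replicate 1, 0 when any 1 of the other 5 arrays was left out and 0 with only the arrays compared, so AHRR and NQO1 each lost the call in 5 of 6 leave-one-out fits. The AHR repressor AHRR, which competes with AHR for ARNT, read 7.03, 7.09 and 6.81 without and 7.70, 7.77 and 7.92 with IL4I1. It rose by 0.81 ± 0.17 (adjusted p = 0.0415), with all 3 IL4I1 arrays above the controls. The quinone reductase gene NQO1, a target of both AHR and NRF2, went from 8.79, 8.63 and 8.29 to 9.47, 9.50 and 9.59 and rose by 0.95 ± 0.20 (adjusted p = 0.0462). IL4I1 arrays all lay above the controls for 8.91% of all genes. Among the other targets, this held for 6 that did not pass the test. CYP1B1, a cytochrome P450 of oestrogen and xenobiotic oxidation, was one of them at 9.51, 8.41 and 8.59 against 9.68, 9.96 and 9.83, a difference of 0.98 ± 0.28 (adjusted p = 0.119). Without control replicate 1 the difference for CYP1B1 was 1.32 (adjusted p = 0.0182), and over the 6 leave-one-out fits its adjusted p ran from 0.0182 to 0.449. TIPARP, an ADP-ribosyltransferase that restrains AHR, differed by 0.42 ± 0.18 (adjusted p = 0.337). SLC7A5, an importer of aromatic amino acids, differed by 0.40 ± 0.28. The ninth target, the efflux pump ABCG2, averaged 4.92 and 4.92. The median over the 9 was 0.54 here, 0.71 in shCtrl cells and 0.50 in shAHR1 cells, and no member's change differed between shAHR2 and shCtrl cells past the threshold. The widest gap was for TIPARP, with 0.42 here, 1.55 in shCtrl cells (adjusted p = 0.000183) and -0.06 in shAHR1 cells. The difference between shAHR2 and shCtrl cells was -1.13 ± 0.25 (adjusted p = 0.643). None of 14 AHR partners and chaperones passed the test.

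Promoters of AHRR and TIPARP are shown because they carry the core to which AHR and ARNT bind. Each window runs from 250 bases before to 50 bases after the first transcription start listed for the gene in RefSeq (GRCh38.p14), on the gene's strand. Capitals mark GCGTG or, for a match on the opposite strand, CACGC.
AHRR, chr5:321464-321763, plus strand: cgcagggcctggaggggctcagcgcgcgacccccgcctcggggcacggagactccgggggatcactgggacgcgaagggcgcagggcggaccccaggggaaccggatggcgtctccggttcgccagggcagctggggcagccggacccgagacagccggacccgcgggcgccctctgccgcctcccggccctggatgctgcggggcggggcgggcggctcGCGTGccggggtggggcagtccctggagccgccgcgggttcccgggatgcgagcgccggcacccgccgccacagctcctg
TIPARP, chr3:156674340-156674639, plus strand: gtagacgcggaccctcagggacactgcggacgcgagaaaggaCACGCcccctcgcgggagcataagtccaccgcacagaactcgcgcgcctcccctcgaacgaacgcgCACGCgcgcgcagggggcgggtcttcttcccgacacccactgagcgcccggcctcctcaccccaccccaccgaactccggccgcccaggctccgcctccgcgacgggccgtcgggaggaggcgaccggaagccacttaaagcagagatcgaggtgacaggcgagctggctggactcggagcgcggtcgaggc
AHRR held 1 match and TIPARP 2. The 5 letters are short and common: 47.7% of the 12265 tested genes with a promoter entry held GCGTG on either strand, against 21 of the 40 promoters of genes that rose (52.5%), 11 of the 33 of genes that fell (33.3%) and 5 of the 7 of the core targets (71.4%). A match describes letters in the window, not binding.

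Chaperones and folding enzymes of the endoplasmic reticulum (ER) formed the list with the most members that rose, 5 of 20 measured. None fell, and 0.335% of all genes rose. Such genes are induced when unfolded proteins build up in the ER. ERO1B, an oxidase that drives disulfide formation, read 5.03, 5.11 and 4.68 and then 6.30, 6.05 and 6.33, and rose by 1.29 ± 0.19 (adjusted p = 0.0043). MANF, an ER-resident survival factor, went from 7.70, 7.79 and 7.77 to 8.97, 8.51 and 8.88 and rose by 1.03 ± 0.17 (adjusted p = 0.00999). The disulfide isomerase PDIA4 rose by 0.94 ± 0.16 (adjusted p = 0.0115), from 8.96, 9.10 and 8.83 to 9.82, 10.03 and 9.87. The groups were separate for these 3 genes, as for every called gene. ERO1B kept the call in all 6 leave-one-out fits, whereas MANF and PDIA4 each lost it in 2. CALR, the lectin chaperone calreticulin, was already bright at 11.17, 11.14 and 10.99 and reached 12.07, 11.90 and 11.81, a rise of 0.83 ± 0.14 (adjusted p = 0.0115). SDF2L1, a partner of the ER chaperone HSPA5, rose by 1.00 ± 0.19 (adjusted p = 0.0198). HSPA5 itself differed by 0.98 ± 0.23 (adjusted p = 0.0618) and HYOU1, its nucleotide exchange factor, by 1.06 ± 0.23 (adjusted p = 0.0519); for both, all IL4I1 arrays lay above the controls. The 3 stress sensors of the ER did not pass the test, with ATF6 at -0.02, the kinase EIF2AK3 at 0.24 and ERN1 at 0.14. In all, 19 of 20 members were higher on average, against 7940 of all 15529 genes, and 12 were higher without overlap, against 8.91%. The median over the list was 0.53 here, 1.15 in shCtrl cells, where 13 rose, and 0.65 in shAHR1 cells, where 8 rose, against 2.02% and 0.56% of all genes that rose there. The change in shAHR2 cells was below that in shCtrl cells for 19 of 20 members, and none of these differences passed the test (lowest adjusted p = 0.704). The median difference was -0.476 over the list and -0.0049 over all genes. The members were read on the same arrays, so they are not independent observations. The count of ER genes that rose was 8 without control replicate 1, 5 without control replicate 2, 4 without IL4I1 replicate 3, 2 when any 1 of the remaining 3 arrays was left out and 0 with only the arrays compared.

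CALR and ERO1B are shown with their promoters because the windows carry the ER stress element, a CCAAT box followed after 9 bases by CCACG, through which ATF6 acts with NF-Y. This element was searched after the data had been seen. Capitals mark CCAAT and CCACG, here read on the opposite strand as CGTGG and ATTGG.
CALR, chr19:12938359-12938658, plus strand: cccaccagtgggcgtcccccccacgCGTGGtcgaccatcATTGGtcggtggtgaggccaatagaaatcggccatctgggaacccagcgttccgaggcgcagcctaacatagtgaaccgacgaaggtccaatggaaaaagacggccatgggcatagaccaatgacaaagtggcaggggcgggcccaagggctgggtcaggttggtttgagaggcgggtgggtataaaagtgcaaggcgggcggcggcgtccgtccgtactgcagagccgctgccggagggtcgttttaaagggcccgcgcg
ERO1B, chr1:236281909-236282208, minus strand: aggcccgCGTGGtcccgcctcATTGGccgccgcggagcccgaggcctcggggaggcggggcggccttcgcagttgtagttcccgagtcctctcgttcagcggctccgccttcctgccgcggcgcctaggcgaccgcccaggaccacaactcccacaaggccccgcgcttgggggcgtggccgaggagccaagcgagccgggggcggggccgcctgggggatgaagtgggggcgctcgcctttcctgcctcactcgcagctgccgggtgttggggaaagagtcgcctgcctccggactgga
The element began 225 bases before the start in CALR and 243 bases before it in ERO1B. On either strand it occurred in 14 of 12265 promoters (0.114%), of which 6 belonged to the 20 members of the ER list (30%). Those 6 were CALR, ERO1B, HSPA5, CANX, XBP1 and CRELD2. CANX, the membrane-bound relative of calreticulin, differed by 0.33 ± 0.14 (adjusted p = 0.365), the transcription factor gene XBP1 by 0.13 ± 0.17 (adjusted p = 0.853) and CRELD2 by 0.62 ± 0.20 (adjusted p = 0.179). Of the 6 genes with the element, 2 passed the test.

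The integrated stress response, which raises translation of the factor ATF4 when amino acids run short or proteins misfold, had no member that passed the test among 33 measured. All 33 were higher on average, against 7940 of all 15529 genes, and 16 were higher without overlap, against 8.91%. The median was 0.46 (all genes 0.01). DDIT3, which encodes the factor CHOP, read 7.14, 6.72 and 5.36 and then 7.80, 7.84 and 7.78, a difference of 1.40 ± 0.37 (adjusted p = 0.0989). The controls of DDIT3 were spread widely and control replicate 3 was the lowest. The difference was 1.76 without control replicate 1 (adjusted p = 0.0268) and 0.87 without control replicate 3 (adjusted p = 0.335). STC2, a secreted glycoprotein induced by ATF4, differed by 0.86 ± 0.22 (adjusted p = 0.0866) and SLC7A11, the cystine importer, by 1.56 ± 0.47 (adjusted p = 0.15). None of 15 cytosolic aminoacyl-tRNA synthetases passed the test.

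Oxidant defence is of interest because IL4I1 releases hydrogen peroxide. Of 24 measured NRF2 targets and genes of glutathione and iron handling, 3 rose, against 0.335% of all genes, and none fell. On average 23 were higher, against 7940 of all 15529 genes, and the median was 0.42. TXNRD1, thioredoxin reductase, went from 9.08, 8.84 and 8.50 to 9.91, 9.86 and 9.97 and rose by 1.10 ± 0.20 (adjusted p = 0.0166). ABCC2, an efflux pump for glutathione conjugates, read 8.30, 7.55 and 7.52 and then 9.30, 9.15 and 9.15, and rose by 1.41 ± 0.24 (adjusted p = 0.0125). The third was NQO1. GCLC, which makes the rate-limiting step of glutathione synthesis, differed by 0.88 ± 0.22 (adjusted p = 0.0841) and HMOX1, haem oxygenase, by 1.24 ± 0.31 (adjusted p = 0.0841). The median over the list was 0.38 in shCtrl cells and 0.53 in shAHR1 cells. The count that rose was 7 without control replicate 1, 1 without IL4I1 replicate 3, 0 when any 1 of the other 4 arrays was left out and 0 with only the arrays compared. None of 21 peroxide and superoxide scavengers passed the test; SOD2, the mitochondrial dismutase, differed by 0.45 ± 0.13 (adjusted p = 0.116) and thioredoxin (TXN) by 0.30 ± 0.12 (adjusted p = 0.312). None of 14 genes of ammonia, glutamine and urea handling passed either. GLUL, glutamine synthetase, which fixes ammonia, differed by 0.56 ± 0.16 (adjusted p = 0.117).

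Interleukins of the IL1 and IL10 families were among the larger rises. Of 21 measured interleukins and receptors, 4 rose, against 0.335% of all genes, and none fell. With 1 array left out the count that rose was 1 to 5. It was 5 without control replicate 1, and 1 without control replicate 3, IL4I1 replicate 1 or IL4I1 replicate 3. IL24, an IL10-family cytokine, went from 7.03, 6.94 and 6.30 to 9.30, 9.03 and 9.56 and rose by 2.54 ± 0.43 (adjusted p = 0.0125). IL1A, the alarmin interleukin 1 alpha, read 6.06, 6.34 and 5.64 and then 8.13, 8.10 and 8.27, a rise of 2.15 ± 0.38 (adjusted p = 0.0142). IL36B, an IL1-family agonist, was bright in both groups at 9.54, 9.14 and 8.99 and 11.28, 11.02 and 10.82 and rose by 1.82 ± 0.19 (adjusted p = 0.000107). The groups were separate for each of these cytokines, as for every called gene. IL36B kept the call in all 6 leave-one-out fits, whereas IL1A lost it in 4 and IL24 in 3. IL1RN, the antagonist that blocks the IL1 receptor, rose with the agonists, from 6.72, 7.12 and 6.44 to 8.52, 8.02 and 8.57 or by 1.61 ± 0.31 (adjusted p = 0.0229). IL1B differed by 0.79 ± 0.35 (adjusted p = 0.38), IL6 by 0.32 ± 0.43 (adjusted p = 0.858) and the receptor IL1R1 by 0.32 ± 0.22 (adjusted p = 0.645), none past the threshold. In the other backgrounds, IL24 changed by 3.03 in shCtrl and 2.05 in shAHR1 cells, IL1A by 2.97 and 1.80, and IL36B by 1.91 and 1.54.

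Of 14 measured chemokines and receptors, 1 fell, against 0.277% of all genes, and none rose. CCL2, which draws monocytes, read 7.09, 7.26 and 6.83 in control cells and 4.56, 4.78 and 4.39 with IL4I1. It fell by 2.49 ± 0.24 (adjusted p = 5.84e-05), to a low level on the arrays, where the size of a change is uncertain. The neutrophil chemokines stood on the other side of 0 without passing the test, CXCL8 at 0.75 ± 0.36 (adjusted p = 0.442), CXCL2 at 0.80 ± 0.22 (adjusted p = 0.115) and CXCL3 at 1.25 ± 0.37 (adjusted p = 0.141). None of 23 NF-kB genes passed, with PTGS2, the inducible cyclooxygenase, at 1.41 ± 0.43 (adjusted p = 0.152) and NFKBIZ at 0.67 ± 0.25 (adjusted p = 0.255). Nor did any of 20 AP-1 and immediate early factors, 29 interferon-induced genes or 21 genes of antigen processing and immune checkpoints.

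Genes of mitosis were the list with the lowest median, -1.86 over 45 measured members, yet only PLK4 passed the test. All 45 were lower on average with IL4I1, against 7589 of all 15529 genes, and 34 were lower without overlap, against 9.88%. PLK4, the kinase that starts centriole duplication, read 5.48, 7.09 and 6.64 in control cells and 3.55, 4.21 and 4.35 with IL4I1. It fell by 2.37 ± 0.51 (adjusted p = 0.0466), to among the dimmest levels. Well known members behaved alike in size but missed the threshold; they were named after their values had been seen. CDK1, the kinase that drives entry into mitosis, read 6.62, 8.71 and 8.32 and then 5.10, 5.40 and 6.04, a difference of -2.37 ± 0.64 (adjusted p = 0.105). MKI67, the proliferation marker Ki-67, read 7.29, 9.13 and 9.01 and then 6.21, 6.87 and 7.03, a difference of -1.77 ± 0.56 (adjusted p = 0.169). For both, control replicate 1 was the lowest control. Expressed per array as the median deviation of the 45 members from their 6-array means, the control arrays stood at -0.30, 1.58 and 1.44 and the IL4I1 arrays at -1.55, -0.52 and -0.67. Control replicate 1 was thus closer to the IL4I1 arrays than to the other controls, and IL4I1 replicate 1 was the lowest of all. Replicate 1 was the lowest array in both groups. With a replicate block in the fit, 27 of the 45 fell. Without control replicate 1, 27 of the 45 fell, whereas none fell past the test when any 1 of the other 5 arrays was left out (0 of 45 each time). The part that control replicate 1 plays was not tested further. The median was -2.16 in shCtrl cells, where 29 fell, and -2.22 in shAHR1 cells, where 12 fell, against 2.56% and 0.753% of all genes that fell there.

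**Figure D3:**
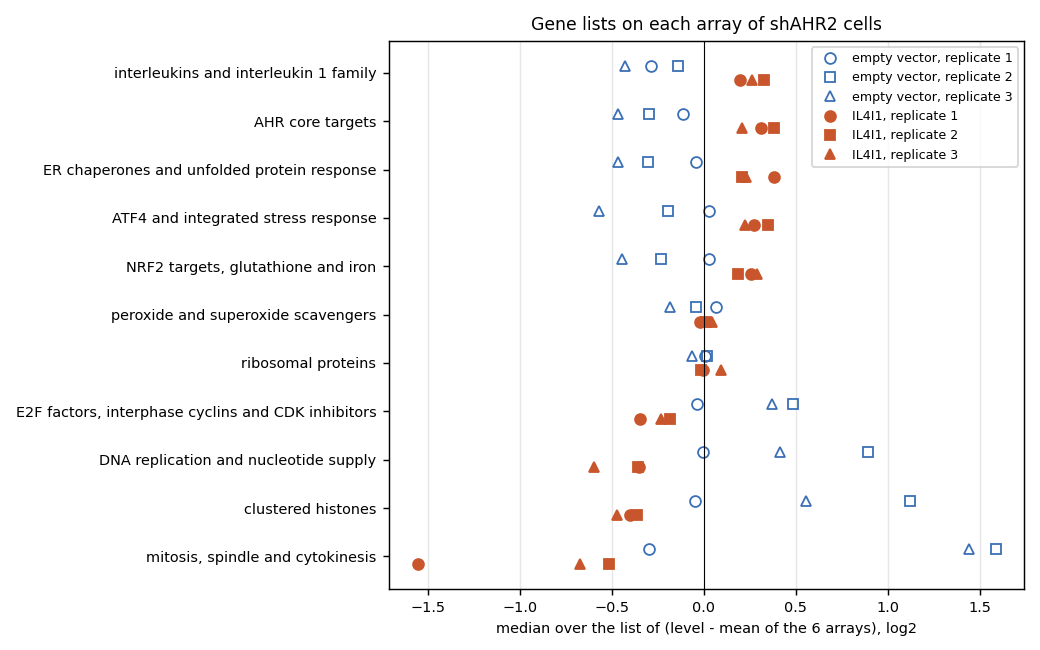
The x axis gives, for each of the 6 arrays, the median over a list of the difference between a gene's level and its mean over the 6 arrays (log2), with 1 row per list, open symbols for control arrays and filled symbols for IL4I1 arrays. For mitosis, control replicate 1 (open circle, -0.30) lies away from the other controls and to the left of 0, while for the ER and AHR core lists all filled symbols lie to the right of the open ones.

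PLK4 is shown with its promoter because the cell cycle homology region TTTGAA, bound by the DREAM complex that represses mitotic genes in resting cells, lies in the window of most of these genes. Capitals mark it, read on the opposite strand as TTCAAA.
PLK4, chr4:127880643-127880942, plus strand: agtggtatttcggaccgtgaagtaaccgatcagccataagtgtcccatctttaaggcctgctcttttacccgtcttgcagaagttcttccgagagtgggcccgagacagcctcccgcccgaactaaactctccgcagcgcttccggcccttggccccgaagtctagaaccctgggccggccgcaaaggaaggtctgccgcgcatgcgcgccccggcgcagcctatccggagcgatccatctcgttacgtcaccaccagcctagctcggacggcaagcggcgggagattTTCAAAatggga
The letters occurred on either strand in 28 of the 38 promoters of the mitosis list (73.7%) and in 10.3% of all promoters. Of the genes that fell, 3 of 33 promoters held them (9.09%).

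DNA replication and nucleotide supply gave 1 gene that fell among 40 measured, with a median of -0.90. On average 38 were lower, against 7589 of all 15529 genes, and 30 were lower without overlap, against 9.88%. RFC3, a subunit of the clamp loader, read 6.80, 7.49 and 7.25 and then 6.17, 6.05 and 5.71, and fell by 1.21 ± 0.26 (adjusted p = 0.0477). Without control replicate 1, 12 of the 40 fell, and 0 when any 1 of the other 5 arrays was left out. E2F7, a repressor of E2F targets that is itself made in S phase, averaged 6.82 and then 5.10 and fell by 1.72 ± 0.22 (adjusted p = 0.00136), the 1 gene of 25 E2F factors, cyclins and inhibitors to pass. The histone gene H2BC14 read 7.48, 9.50 and 7.90 in control cells and 4.22, 5.58 and 5.46 with IL4I1, and fell by 3.20 ± 0.63 (adjusted p = 0.0259). The spread within both groups was wide, and histone genes of 1 cluster are near-identical, so its probes may read several of them. It was the 1 of 11 clustered histones to pass, and the median over them was -0.82. TRIP13, a remodeller of checkpoint complexes, fell by 1.14 ± 0.23 (adjusted p = 0.0279), from 6.63, 7.49 and 7.02 to 5.98, 5.88 and 5.85. None of 25 p53 targets passed the test, SESN2 at 0.76 ± 0.26 (adjusted p = 0.205) and BTG2 at 0.67 ± 0.22 (adjusted p = 0.186) being nearest.

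Of 17 measured glial and neural markers, 2 fell, against 0.277% of all genes, and none rose. The astrocyte glutamate transporter SLC1A3 went from 8.65, 8.43 and 8.87 to 7.67, 7.64 and 7.54, a fall of 1.04 ± 0.19 (adjusted p = 0.0181). SOX9, a transcription factor of glial progenitors, read 7.86, 7.78 and 7.62 and then 6.89, 6.76 and 6.56, and fell by 1.02 ± 0.20 (adjusted p = 0.0268). SLC1A3 lost the call in 4 and SOX9 in 5 of 6 leave-one-out fits. The genes that follow were named for the size of their change and belong to no list that was counted. DCC, the netrin receptor that guides axons, read 7.10, 6.58 and 6.44 and then 4.49, 4.56 and 4.02, and fell by 2.35 ± 0.23 (adjusted p = 7.61e-05) to among the dimmest levels. GABRA3, a subunit of GABA-A receptors, the chloride channels of neurons, fell by 1.24 ± 0.26 (adjusted p = 0.0406), from 8.00, 8.04 and 8.04 to 6.34, 7.09 and 6.93. GABRQ, another such subunit, fell by 1.14 ± 0.24 (adjusted p = 0.0354), from a mean of 8.42 to one of 7.27. Both GABRA3 and GABRQ lost the call in 5 of 6 leave-one-out fits. NEGR1, a neuronal adhesion protein, fell by 1.85 ± 0.31 (adjusted p = 0.0115). NR2F1, an orphan nuclear receptor of neural development and of tumour cell dormancy, read 8.30, 8.38 and 8.56 and then 7.41, 6.89 and 6.94, and fell by 1.33 ± 0.19 (adjusted p = 0.00343). PAK3, a brain-enriched kinase downstream of Rac and Cdc42, fell by 1.24 ± 0.25 (adjusted p = 0.0311).

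Of 31 measured growth factors and receptors, 1 rose and 1 fell, against 0.335% and 0.277% of all genes. FGF7, keratinocyte growth factor, went from 8.32, 8.60 and 8.75 to 6.52, 5.99 and 6.65 and fell by 2.17 ± 0.36 (adjusted p = 0.0115), whereas EREG, the EGF receptor ligand epiregulin, read 9.90, 9.56 and 9.67 and then 10.68, 10.78 and 10.90 and rose by 1.08 ± 0.18 (adjusted p = 0.0139). CCN2, connective tissue growth factor and a classical YAP target, fell by 1.36 ± 0.26 (adjusted p = 0.0207), from 6.60, 6.88 and 7.05 to 5.43, 5.21 and 5.81, as the 1 of 17 contractile and YAP target genes. ITGA2, the collagen-binding integrin subunit, fell by 1.12 ± 0.22 (adjusted p = 0.0262), from 8.74, 8.86 and 9.03 to 7.65, 7.81 and 7.82, as the 1 of 30 matrix and adhesion genes. No member of these last lists rose past the test, and groups were separate for each gene named, as for every called gene. OLFML2A, an extracellular olfactomedin-domain protein, fell by 1.09 ± 0.21 (adjusted p = 0.0256) and the scavenger receptor SCARA3 by 1.07 ± 0.19 (adjusted p = 0.0177). None of 21 collagens and none of 23 matrix proteases and inhibitors passed; the collagenase MMP1 read 6.67, 6.62 and 5.84 and then 7.83, 7.64 and 8.20, a difference of 1.51 ± 0.35 (adjusted p = 0.0605, and 0.0418 to 0.246 with 1 array left out).

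Of 20 measured amino acid transporters, SLC16A6 rose and SLC1A3, described above, fell. SLC16A6, a monocarboxylate-family transporter, went from 6.69, 6.17 and 5.78 to 8.51, 8.31 and 7.98 and rose by 2.05 ± 0.35 (adjusted p = 0.0139). The carriers and enzymes that follow were named for the size of their change, and except for ATP6V0D2 they belong to no list that was counted. SLC2A9, a urate transporter, read 5.39, 4.98 and 5.66 and then 7.39, 6.64 and 6.91, and rose by 1.64 ± 0.21 (adjusted p = 0.0012). SLC2A10, of the same facilitative sugar transporter family, rose by 1.77 ± 0.38 (adjusted p = 0.0462). HKDC1, a hexokinase, rose by 1.74 ± 0.28 (adjusted p = 0.0115), from 6.06, 6.09 and 5.79 to 7.92, 7.49 and 7.75. ATP6V0D2, a subunit of the proton pump of lysosomes, rose by 2.29 ± 0.43 (adjusted p = 0.0198), the 1 of 20 lysosome and pump genes to pass. ALDH1A3, which makes retinoic acid, was bright at 9.01, 8.99 and 8.59 and reached 10.05, 10.29 and 10.36, a rise of 1.37 ± 0.24 (adjusted p = 0.0153). Among transporters that fell were SLC25A4, the mitochondrial exchanger of ADP and ATP, by 1.03 ± 0.21 (adjusted p = 0.0343) and SLC29A1, a nucleoside carrier, by 1.03 ± 0.18 (adjusted p = 0.0151). IL4I1 was the 1 of 18 genes of tryptophan and kynurenine metabolism to pass, and none of 8 genes of phenylalanine and tyrosine metabolism, 31 of hypoxia and glycolysis, 18 of cholesterol synthesis, 16 ribosomal protein genes or 6 reference genes did.

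Further genes that rose serve varied roles. RCAN1, an inhibitor of calcineurin, read 7.86, 7.75 and 7.58 and then 8.73, 9.11 and 9.59, and rose by 1.42 ± 0.28 (adjusted p = 0.0272). TBC1D2, which acts on Rab7 and cadherin turnover, rose by 1.29 ± 0.17 (adjusted p = 0.00154), from 7.83, 7.50 and 7.36 to 8.93, 8.67 and 8.97. The groups were separate for both, as for every called gene. NMB, the peptide neuromedin B, rose by 1.53 ± 0.26 (adjusted p = 0.0139) and BEX1, a brain-expressed adaptor, by 1.58 ± 0.28 (adjusted p = 0.0139). TRIM77, of the tripartite motif family, rose by 2.35 ± 0.44 (adjusted p = 0.0207), from controls of 4.86, 5.17 and 3.73 that were widely spread.

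The same contrast was available in cells with other hairpins, on arrays that these 6 do not share. The calls in all 3 backgrounds came from the same fit, with a shared estimate of the spread per gene, so they were not independent. In shCtrl cells 711 genes changed with IL4I1 (4.58%), 313 up (2.02%) and 398 down (2.56%), and in shAHR1 cells 204 (1.31%), 87 up (0.56%) and 117 down (0.753%). Of the 52 genes that rose in shAHR2 cells, 44 also rose in shCtrl cells (84.6% of the former list and 14.1% of the latter) and 30 in shAHR1 cells (57.7% and 34.5%). Of the 43 that fell, 34 also fell in shCtrl cells (79.1% and 8.54%) and 26 in shAHR1 cells (60.5% and 22.2%). The sign was shared by 51 of the 52 and 42 of the 43 in shCtrl cells, and by 49 of the 52 and 43 of the 43 in shAHR1 cells. In all 3 backgrounds 28 genes rose and 20 fell, IL4I1 included. Across the 15529 genes, as a description, the change in shAHR2 cells correlated with that in shCtrl cells at r = 0.596 and with that in shAHR1 cells at r = 0.545. The rank correlations (Spearman) were lower, 0.470 and 0.379. IL4I1 itself was among these genes. Counts of calls are no measure of the size of a response, and the called genes were chosen by their change in shAHR2 cells, so the sizes of their changes cannot be set against those in the other backgrounds.

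**Figure D4:**
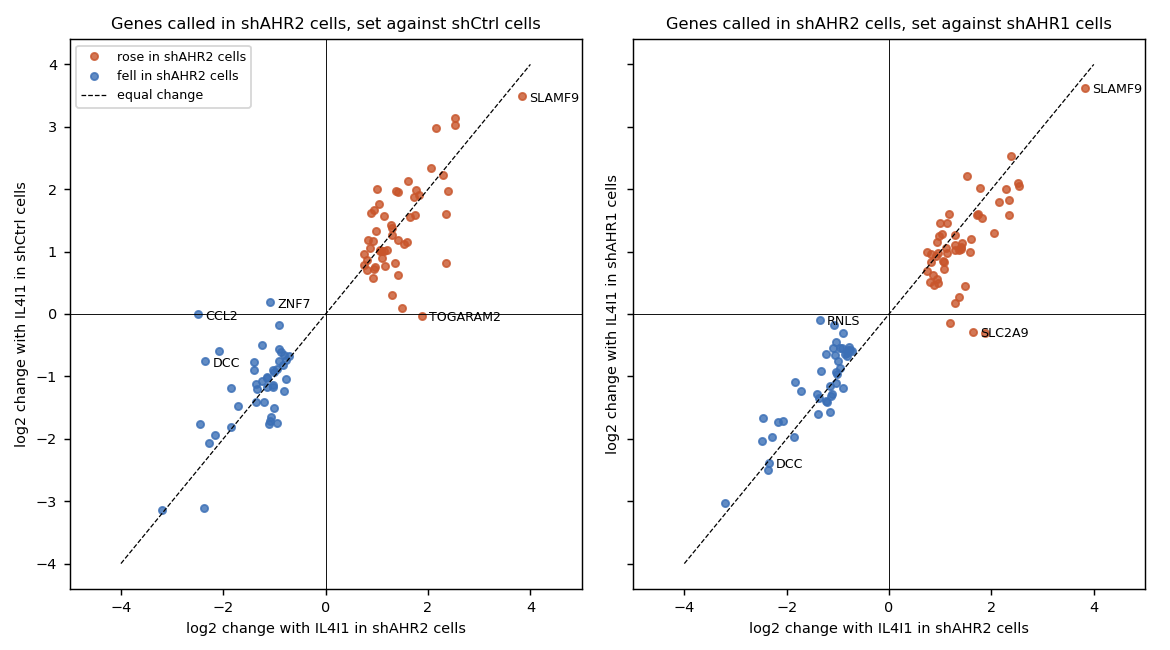
Each point is a gene called in shAHR2 cells (IL4I1 left out), with its log2 change in shAHR2 cells on the x axis and its change in shCtrl cells (left) or shAHR1 cells (right) on the y axis; the dashed line marks equal change. All but 1 of the genes that rose and all but 1 of those that fell keep their sign in the left panel, and CCL2 lies at 0 on the y axis of the left panel.

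The difference between the effect of IL4I1 in shAHR2 cells and that in shCtrl cells was tested for every gene. It passed for 2 genes, both lower in shAHR2 cells (0.0129%), and for none higher (0%), with 670 genes at an unadjusted p under 0.05. CCL2 averaged 6.42 without and 6.42 with IL4I1 in shCtrl cells; its change was -2.49 here and -2.03 in shAHR1 cells (adjusted p = 0.000706). The difference of effects between shAHR2 and shCtrl cells was -2.49 ± 0.34 (adjusted p = 0.0165). Without IL4I1, CCL2 averaged 7.06 with shAHR2 and 8.15 with shAHR1, so the starting levels were not alike. BPIFC, of the lipid-binding BPI fold family, rose in shCtrl cells by 3.10 (adjusted p = 0.000142). In shCtrl cells it read 3.93, 3.21 and 3.42 without and 7.06, 6.39 and 6.40 with IL4I1, whereas in shAHR2 cells it stayed among the dimmest probe sets at 3.80, 3.03 and 2.66 and 2.55, 2.53 and 3.24. Its difference of effects was -3.48 ± 0.48 (adjusted p = 0.0165), of uncertain size because 5 of the 6 group means were that low. The test passed for no gene when control replicate 1 or 2 or IL4I1 replicate 1 of shAHR2 cells, control replicate 2 or 3 of shCtrl cells or IL4I1 replicate 3 of shCtrl cells was left out.

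Against shAHR1 cells, no gene passed the test of the difference (0%), with 547 genes at an unadjusted p under 0.05. The lowest adjusted p was 0.0955, for SLC2A9, which changed by 1.64 here and by -0.29 in shAHR1 cells, a difference of 1.93 ± 0.29. Its control level was 5.34 with shAHR2 and 6.45 with shAHR1. DCC averaged 4.60 in shCtrl control cells, 6.39 with shAHR1 and 6.71 with shAHR2, and with IL4I1 it averaged 3.84, 4.00 and 4.36. With array weights or without IL4I1 replicate 2 of shAHR2 cells, 1 gene passed. Calls in shAHR2 cells without a call in either other background numbered 9, and none of the 9 passed a test of the difference.

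**Figure D5:**
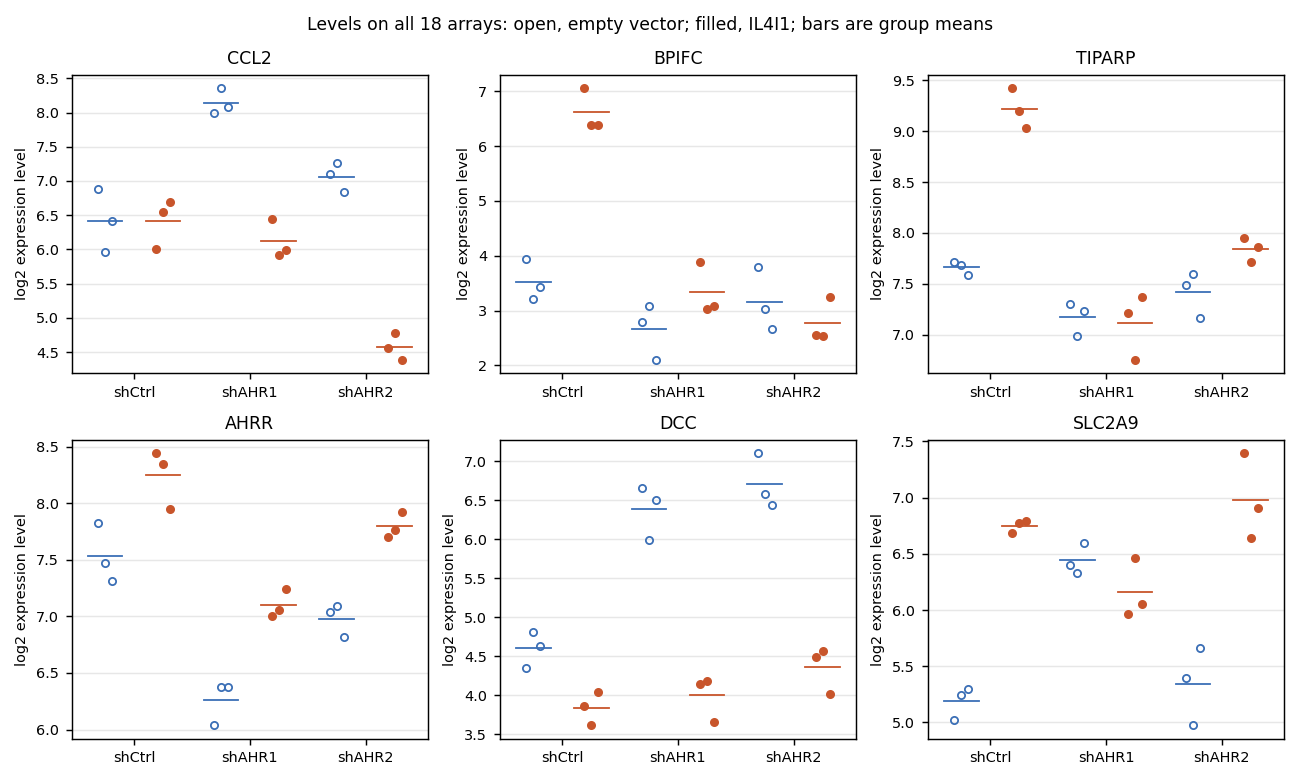
Each panel shows the log2 expression level of 1 gene on all 18 arrays by hairpin, with open circles for control vector, filled circles for IL4I1 and bars for group means; the y axes differ between panels and do not start at 0. CCL2 is lower with IL4I1 for both AHR hairpins and not for shCtrl, BPIFC and TIPARP are higher with IL4I1 for shCtrl by 3.10 and 1.55, and AHRR is higher with IL4I1 for all 3 hairpins.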

How the data were processed

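RNA of 18 cultures was hybridised to Affymetrix arrays of 1 colour. The authors deposited log2 expression values per probe set; the submitters' processing notes name oligo and RMA, with no version. Scanner files were not used here. The log2 scale was read from the values, 1.11 to 13.4. Of 18913 probe sets, 15598 were paired with 1 symbol, 870 with several and 2445 were not listed; 1173 old symbols were updated through the RefSeq gene table (GRCh38.p14), and 58 were not found there. Where a gene had more than 1 probe set (66 genes), its brightest on average stood for it. The remaining 15529 genes were fitted with limma 3.58.1 in R 4.3.3 (lmFit, eBayes), as 6 group means over all 18 arrays, with Benjamini-Hochberg adjustment and a threshold of 0.05. The fit was checked on data with known changes. With 3 arrays a group, an exact permutation test reaches a p of 0.1 at best.

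Named genes were IL4I1, AHR and its core targets; in each direction the 20 called genes of largest change with no overlap and a brighter group at or above the median of all probe sets, without small RNAs, receptor segments and undescribed transcripts; genes past the test of a difference of effects; and of each list up to 4 called members or, with none, the 2 of lowest p. Members of lists named beyond this were chosen after their values were seen. The 37 gene lists, the groups and the tests were chosen with earlier results of these data known. Promoters came from a RefSeq table (GRCh38.p14), the first listed start per gene; 73 of the 95 called genes matched. Array date and batch are not in the labels and could not be tested. Alternatives were array weights, a trended and robust prior, only the arrays compared, quantile normalization again, median centring, filters on dim genes, the choice of probe set, a replicate block and leaving out each array.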

Additional observations from a re-analysis of the deposited data

Results flagged for a closer look

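The effect of IL4I1 differed between shAHR2 and shCtrl cells for 2 genes by the test of the difference itself. CCL2 had a difference of effects of -2.49 log2, where it fell by 2.49 ± 0.24 in shAHR2 cells, with group means of 6.42 and 6.42 in shCtrl cells. BPIFC had a difference of effects of -3.48 log2, with a change of -0.39 ± 0.34 in shAHR2 cells (adjusted p = 0.749) and of 3.10 in shCtrl cells (adjusted p = 0.000142). The cause of either difference was not tested.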

How the results depend on the processing

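The count of 95 called genes depended on the setting. It was 462 with array weights, 235 with a replicate block (92 up and 143 down), 198 with a trended and robust prior, 143 over the brighter genes alone and 23 when the 6 arrays were fitted alone. Leaving out 1 array gave 22 to 335: 335 without control replicate 1, 35 and 22 without control replicates 2 and 3, and 29, 26 and 31 without IL4I1 replicates 1, 2 and 3. The cause of these moves was not tested. All probe sets gave 107, median centring 97, the most variable probe set 95, a second quantile normalization 130, leaving out the dimmest 10% of genes 122 and a size of at least 1 gave 69. Replicate numbers were not taken to pair the 2 groups compared, since the correlation of same-numbered deviations between them was 0.134, 0.023 and 0.007. Of the 6 arrays, 2 correlated best with their own number. Over all pairs of the 6 groups it ran from -0.132 to 0.324 and was over 0.1 for 12 of 45. Between control-vector cells with shAHR2 and with shCtrl it was 0.281, 0.038 and 0.324. In the mitosis list replicate 1 was the lowest array of both groups compared. With the replicate block 27 mitosis genes fell, against 1 in the main fit. The difference against shCtrl cells called 2 genes, 1 after a second quantile normalization, 1 with the trended and robust prior, 1 without the dimmest 10%, 0 over brighter genes or with the arrays compared alone, and 0 to 3 with 1 array left out. Against shAHR1 cells it called 0, and 1 with array weights, 1 with the arrays compared alone and 0 to 1 with 1 array left out. ABCG2, at -0.00, turned to 0.0087 with array weights, 0.0238 without control replicate 2 and 0.1621 without IL4I1 replicate 1, and was -0.0886 without IL4I1 replicate 2. Of 49 named called genes, none reversed and 41 lost the call in at least 1 setting. Over the same settings, chosen for the lists after the data had been seen, the members that rose numbered 0 to 8 for the ER list, 0 to 7 for the NRF2 list, 1 to 6 for interleukins and 0 to 3 for AHR core targets, and those that fell 0 to 27 for mitosis and 0 to 17 for DNA replication. Each group had 3 arrays, which limits precision, and probes in the lowest 1% of group means (4.51 or less) give uncertain sizes; 10 called genes had such a group.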

Other observations

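Some called genes outside the lists and the rule for named genes were read after their values were known. ELMO1, which activates Rac with DOCK proteins, read 6.04, 5.40 and 4.61 in control cells and 2.63, 2.82 and 3.22 with IL4I1 (log2 expression, limma adjusted p = 0.00505), so that all IL4I1 arrays were among the dimmest values. CHRDL1, a secreted antagonist of bone morphogenetic proteins, read 6.17, 5.82 and 5.80 and then 4.14, 4.18 and 3.94 (adjusted p = 0.00505). GEN1, a nuclease that resolves recombination junctions, changed by -2.29 ± 0.50 (adjusted p = 0.0494) and TOPBP1, a scaffold of replication start and checkpoint signalling, by -0.91 ± 0.17 (adjusted p = 0.0166). PTX3, a secreted pattern recognition protein, changed by 0.98 ± 0.19 (adjusted p = 0.0242), and PRDM1, a transcriptional repressor of lymphocyte differentiation, by 0.88 ± 0.17 (adjusted p = 0.0216). RNLS, a flavin oxidase, changed by -1.35 ± 0.24 here (adjusted p = 0.0153), by -1.12 in shCtrl cells and by -0.10 in shAHR1 cells. TOGARAM2, of a family of microtubule-binding proteins, changed by 1.88 ± 0.35 here (adjusted p = 0.0188) against -0.02 in shCtrl and -0.30 in shAHR1 cells, and its difference of effects against shCtrl cells was 1.91 ± 0.49 (adjusted p = 0.704).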
